A study of Mus musculus with 6 samples.

Results

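The 9 genes described here code for proteins that start, anchor, cut or supervise spindle microtubules: Tubg1, Tubgcp2, Tubgcp3, Tubgcp4, Tubgcp5, Tubgcp6, Katna1, Pcnt and Aurkb. They were taken by symbol from 12134 genes with a listed intron, and some of them have been described in human cells as transcripts that need SON for splicing. Their 125 introns are compared among 85015 introns listed in any library. The cells were E14 mouse embryonic stem cells (mESCs, 129/Ola background), kept in serum with leukemia inhibitory factor. Lipofection delivered either Son siRNA or control siRNA, and RNA was taken 24 hours later. Total RNA, freed of ribosomal RNA, came from 2 samples of each treatment, and Nanopore cDNA from 1 sample of each. The labels name no separate cultures, so p-values measure the spread between these samples, which may be technical.

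Microtubules grow from the γ-tubulin ring complex, in which γ-tubulin molecules are held in a ring by the γ-tubulin complex proteins GCP2 to GCP6. Pericentrin anchors this complex at the centrosome, katanin severs microtubules, and Aurora B, as part of the chromosomal passenger complex, corrects faulty attachments of chromosomes to the spindle. SON is a nuclear speckle protein that binds RNA and helps to splice introns with weak splice sites, many of them in cell cycle genes.

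Each total RNA table gives, for each of the 2 junctions of an intron, the reads that are split there (spliced) or run through it unsplit (unspliced). Split reads can differ in number between the 5′ and 3′ junctions of an intron. Not all of them, then, join the 2 ends of that intron. Splicing efficiency is the share of split reads among all of them. Split reads counted at 5′ junctions totalled 16012286 and 10640247 for the controls, and 14978479 and 10556187 for the knockdown. The long-read libraries held 3080426 control and 1874851 knockdown reads. Son itself had 283 and 314 CPM (read counts scaled to 1000000 per library) of spliced reads in the controls against 93.5 and 102 in the knockdown, a log2 fold change of -1.61 (SE 0.087, adjusted p = 3.72e-10, edgeR). Of 8 pluripotent stem cell markers 7 were listed, with a summed level of 4180 to 4223 CPM in the controls against 3985 to 4229 CPM in the knockdown. Pou5f1 held much of this sum (1983 and 1997 CPM in the controls against 1890 and 1830 CPM in the knockdown). Single markers moved in both directions. Tfcp2l1 rose (log2 fold change 0.23, adjusted p = 0.0354, edgeR), and Zfp42 (-0.20, adjusted p = 0.253) and Klf4 (-0.24, adjusted p = 0.321) were lower without passing. Sox2 was not listed. Of 12 markers of differentiated cells 5 were listed, at 32.3 to 40.7 CPM in the controls against 32.2 to 40.7 CPM in the knockdown, and 7, among them Gata6, Sox17, Foxa2 and Cdx2, were not. Most of that sum was Krt8 (24.0 and 32.3 CPM in the controls against 31.4 and 23.3 CPM in the knockdown).

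Of the 9 genes, Tubgcp6 alone was called in splicing efficiency, and it fell. Tubgcp6 and Tubgcp2 were called in spliced reads, and both fell. The other 7 genes passed neither test. Splicing efficiency per gene was tested with edgeR's quasi-likelihood test on split and unsplit reads summed over a gene's introns. The value tested is a log2 odds ratio, positive where the knockdown had more unsplit reads per split read, and calls were made at an adjusted p under 0.05 over all 9370 genes tested. All 9 genes passed the filters of both gene tests. The 1 call among 9 stands beside a background of 6.98% of all tested genes called lower and 0.128% called higher. In spliced reads, 2 of 9 were called fewer and 0 more, with backgrounds of 6.76% and 1.96% of 9474 genes. The median gene log2 odds ratio was 0.17 over the 9 genes and 0.09 over all tested, and the median log2 fold change in spliced reads was 0.03 and 0.01.

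**Figure D1:**
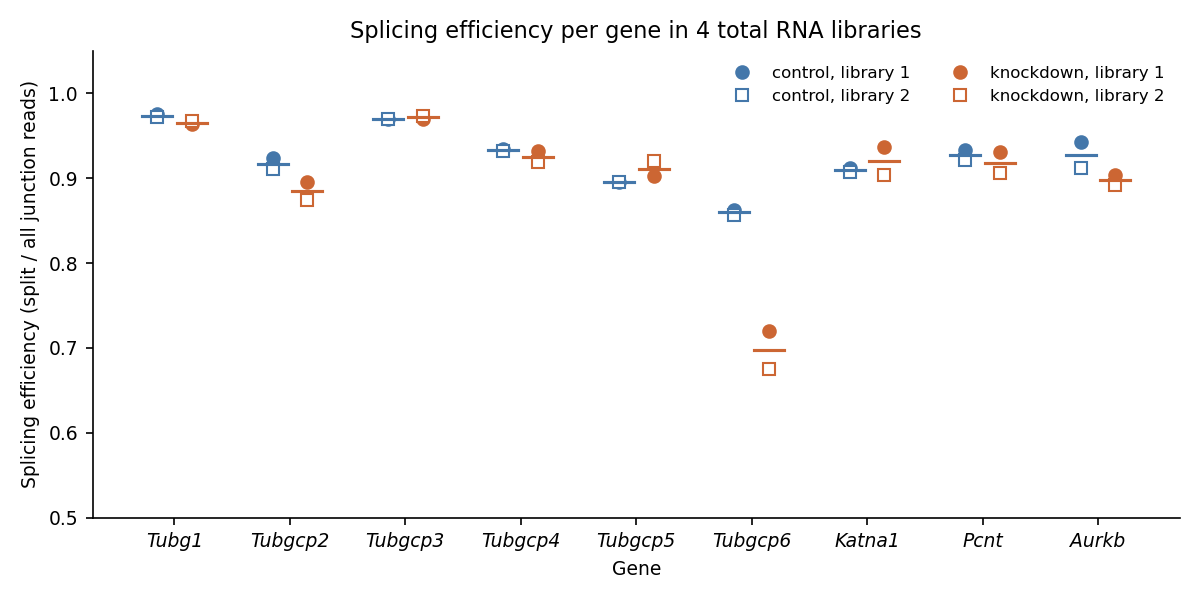
Splicing efficiency per gene (y axis from 0.5, share of split reads) for the 9 genes in the 2 control and 2 knockdown total RNA libraries, with each library as a point and each group's mean as a line. In Tubgcp6 the knockdown libraries, at 0.720 and 0.676, lie below the controls, at 0.863 and 0.857; the lowest value of any other gene is 0.874, in Tubgcp2.

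Tubgcp6 codes for GCP6, the largest of the γ-tubulin complex proteins and a part of the ring complex. It lies on the minus strand of chromosome 15 (ENSMUSG00000051786). Its splicing efficiency was 0.863 and 0.857 in the controls against 0.720 and 0.676 in the knockdown, so the groups did not overlap. Both knockdown libraries lay below both controls in 27.1% of all tested genes. The log2 odds ratio was 1.41 (SE 0.273, 95% confidence interval 0.87 to 1.94, adjusted p = 1.54e-05, edgeR), the mean efficiency falling from 0.860 ± 0.00397 to 0.698 ± 0.0310 (SD, n = 2 each). It was called in 11 of 12 alternative settings, at 1.24 to 1.56, and missed the threshold with limma (adjusted p = 0.116), which called 0 of the 9370 genes (1231 at an unadjusted p under 0.05).

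The reference transcript of Tubgcp6 (ENSMUST00000109353) has 24 annotated introns, of which 17 were listed and 12 could be tested. Intron 21 passed the intron test downwards. It is 76 nt long, at chromosome 15, 88985489 to 88985564 in the deposited tables (the submitters' processing notes name GRCm39), between 2 coding exons. Its efficiency was 0.887 and 0.827 in the controls against 0.618 and 0.615 in the knockdown, over 231, 162, 157 and 143 junction reads. The groups did not overlap, and the log2 odds ratio was 1.93 (SE 0.522, adjusted p = 0.0239, edgeR). Summed over the libraries of a group, unsplit reads were 29 in the controls and 73 in the knockdown at the 5′ junction, and 25 and 42 at the 3′ junction, beside 163 and 90 split reads at the 5′ junction. The call depended on the libraries: adjusted p was 0.568 without control 1, 0.0903 without control 2, 0.0709 without knockdown 2, and 0.00779 to 0.568 over all 11 alternatives, of which 4 kept it.

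Intron 10 of Tubgcp6 passed the test in the opposite direction. This intron of 888 nt (chromosome 15, 88990728 to 88991615) had efficiencies of 0.745 and 0.741 in the controls against 0.984 and 1.00 in the knockdown. Few reads stand behind these shares: 51 and 27 in the controls against 61 and 28 in the knockdown, with 13 and 7 unsplit against 1 and 0. The log2 odds ratio was -4.65 (SE 1.27, adjusted p = 0.0268, edgeR). Over 9 alternative edgeR or limma fits it was -6.50 to -3.51, with an adjusted p of 0.0227 to 0.436, and 3 kept the call. The call did not hold in any fit with a library left out. Without control 1 too few unsplit reads were left for the test, and DESeq2 gave no adjusted p. The next intron, 11, was also higher in the knockdown without passing (0.636 and 0.783 against 0.978 and 0.905, unadjusted p = 0.0143, adjusted p = 0.277).

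Over the 9 genes, 109 introns were tested. Of these, 1 was called lower and 1 higher, where 1.71% of all 63309 tested introns were called lower and 0.0442% higher. The 2 called introns are those of Tubgcp6 above. Before adjustment, 13 introns of the 9 genes had a p under 0.05, and 10 of the 13 were in Tubgcp6, 8 lower and 2 higher; over all tested introns 8.11% were lower and 1.61% higher at that threshold. The knockdown libraries lay below both controls in 8 and above both in 2 of the 12 tested Tubgcp6 introns. In the other 8 genes they lay below in 23 and above in 11 of 97 tested introns, and over all tested introns in 24.3% and 13.1%. The median intron log2 odds ratio was 0.29 over the 9 genes, 0.15 without Tubgcp6 and 0.12 over all tested introns.

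Outside introns 10 and 21, 5 Tubgcp6 introns had an unadjusted p under 0.01 and lower efficiency in the knockdown; they were chosen after their values were seen. Intron 7 had the largest difference in mean efficiency, with 0.864 and 0.810 in the controls against 0.320 and 0.465 in the knockdown (adjusted p = 0.0615, edgeR). Intron 4 had 0.943 and 0.929 in the controls against 0.791 and 0.694 in the knockdown. Intron 15 had 0.890 and 0.907 in the controls against 0.698 and 0.705 in the knockdown, and most of its unsplit reads crossed the 3′ junction (27 of 32 in the controls against 54 of 68 in the knockdown). Intron 17 had 0.743 and 0.768 in the controls against 0.612 and 0.381 in the knockdown. Intron 20 had 0.931 and 0.784 in the controls against 0.706 and 0.721 in the knockdown. In all 5 the knockdown libraries lay below both controls, and none passed over all tested introns.

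The exon junctions that splicing of these introns makes are printed to show what the split reads cross, from the GENCODE M21 transcript, with 30 bases on each side of the junction. Capitals mark the last 3 bases of the upstream exon and the first base of the downstream exon, and all lie in coding sequence.
Tubgcp6 exons around intron 4: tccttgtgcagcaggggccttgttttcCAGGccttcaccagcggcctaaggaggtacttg
Tubgcp6 exons around intron 7: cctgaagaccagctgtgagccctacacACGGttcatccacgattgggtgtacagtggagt
Tubgcp6 exons around intron 10: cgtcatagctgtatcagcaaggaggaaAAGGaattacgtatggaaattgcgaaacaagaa
Tubgcp6 exons around intron 15: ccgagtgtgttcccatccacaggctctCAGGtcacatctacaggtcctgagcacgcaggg
Tubgcp6 exons around intron 17: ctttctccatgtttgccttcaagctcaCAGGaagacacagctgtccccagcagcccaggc
Tubgcp6 exons around intron 20: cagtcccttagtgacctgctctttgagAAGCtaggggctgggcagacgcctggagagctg
Tubgcp6 exons around intron 21: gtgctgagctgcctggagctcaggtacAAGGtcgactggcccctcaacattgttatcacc
The exon before introns 4, 15 and 17 ended in CAG and that before introns 10, 20 and 21 in AAG. Before intron 7 it ended in ACG. The downstream exon began with C after intron 20 and with G after the rest. The sequences of the introns themselves were not used here.

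**Figure D2:**
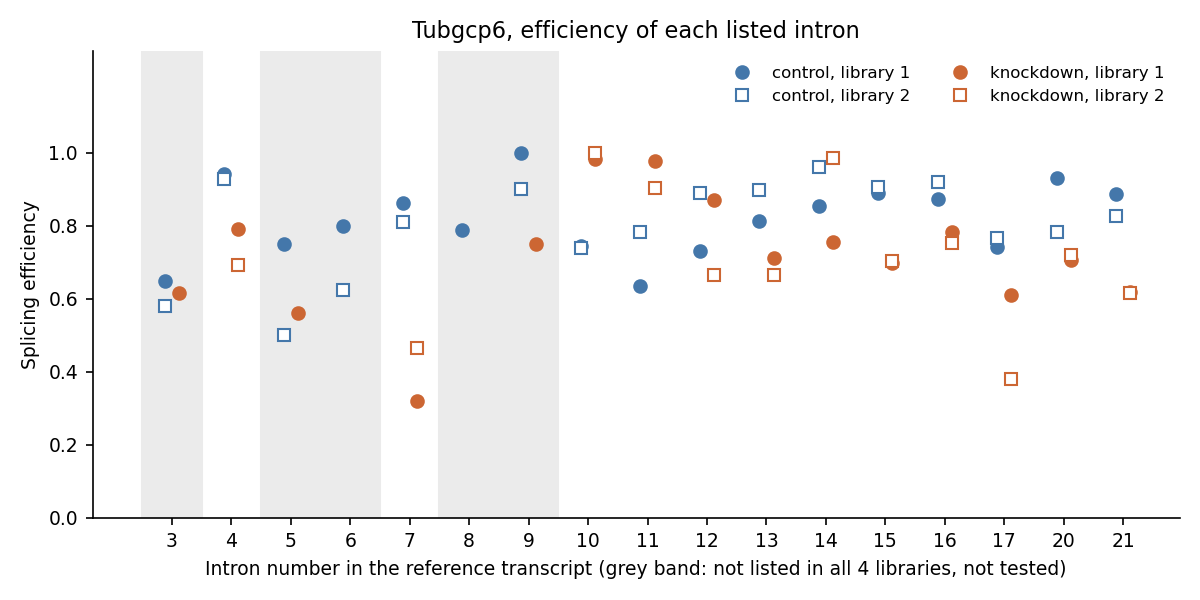
Splicing efficiency (y axis, share of split reads) of each listed Tubgcp6 intron, numbered along the reference transcript, with 1 point per library and grey bands on introns not listed in all 4 libraries. At intron 21 the knockdown points, 0.618 and 0.615, lie below the controls, while at introns 10 and 11 they lie above.

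Another 5 introns of Tubgcp6 (3, 5, 6, 8 and 9) were not listed in all 4 libraries, each junction of a listed intron having at least 10 reads. Introns 3, 5 and 9 were missing from knockdown 2 only. Intron 6 was missing from both knockdown libraries and intron 8 was listed in control 1 only. Where listed, introns 3 to 9 had 25 to 193 junction reads in a library. The gene Selenoo overlaps Tubgcp6 on the opposite strand in the annotation, but 0 of the listed Tubgcp6 introns lie within it.

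The tested introns of Tubgcp6 were short, with a median of 215.5 nt. The median was 1128 nt over all tested introns, 131 nt over the 1084 called lower, and 1094 nt over the 97 tested introns of the other 8 genes. GC content of the flanking exons (up to 100 nt on each side) had a median of 55.4% in Tubgcp6, 50.5% over all tested introns and 56.5% over those called lower. Tubg1 had a median intron length of 304 nt and a flanking GC content of 56.7%, near those of Tubgcp6, with 0 of its 9 introns called (1 at an unadjusted p under 0.05, edgeR). Of introns of at most 250 nt, 1 of 8 was called lower in Tubgcp6, and 0 of 4 in Tubg1, 2 in Pcnt, 2 in Tubgcp5 and 1 in Aurkb. Over all genes 6.81% of such introns were called lower.

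The shortest introns of other genes in the set, under 100 nt, are shown for comparison with intron 21 of Tubgcp6, printed in the same way.
Tubg1 exons around intron 9: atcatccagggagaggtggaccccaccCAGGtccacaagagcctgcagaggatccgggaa
Tubgcp5 exons around intron 2: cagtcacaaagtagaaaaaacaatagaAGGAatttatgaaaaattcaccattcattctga
Aurkb exons around intron 5: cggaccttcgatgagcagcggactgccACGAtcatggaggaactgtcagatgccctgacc
Intron 9 of Tubg1 (80 nt) had an efficiency of 0.958 and 0.962 in the controls against 0.974 and 0.954 in the knockdown. Intron 2 of Tubgcp5 (87 nt) had 0.901 and 0.907 in the controls against 0.905 and 0.892 in the knockdown. Intron 5 of Aurkb (86 nt) had 0.941 and 0.886 in the controls against 0.910 and 0.856 in the knockdown. The groups overlapped in all 3, and none passed the test. Within Tubgcp6, introns 11 (85 nt) and 12 (81 nt) were also under 100 nt, and neither passed. Intron 11 had 32 split and 13 unsplit reads in the pooled controls against 82 and 5 in the pooled knockdown. Intron 12 had 86 and 22 in the controls against 90 and 26 in the knockdown.

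The spliced reads of a gene are its split reads summed over 5′ junctions, in CPM scaled with TMM factors. In bulk RNA, fewer cells that express a gene and less RNA per cell cannot be told apart. Split reads can also be fewer where more of the RNA stays unspliced, so they do not measure all RNA of a gene. Those at 5′ junctions also enter splicing efficiency, so the tests are not independent. Unsplit reads of Tubgcp6, unscaled, were 218 and 176 in the controls against 344 and 296 in the knockdown. How far each adds to its fewer spliced reads was not tested. Tubgcp6 had 44.4 and 51.1 CPM in the controls against 29.9 and 29.7 CPM in the knockdown. The groups did not overlap, with a log2 fold change of -0.67 (SE 0.126, adjusted p = 0.00107, edgeR). Both knockdown libraries lay below both controls in spliced reads in 24.6% of all 9474 tested genes. Tubgcp2 had 151 and 153 CPM in the controls against 122 and 119 CPM in the knockdown, again without overlap, with a log2 fold change of -0.34 (SE 0.085, adjusted p = 0.0130, edgeR). Tubgcp2 codes for GCP2, which pairs with GCP3 in the small γ-tubulin complex. Both calls rested on single libraries in part: without control 2 the adjusted p was 0.0612 for Tubgcp6 and 0.269 for Tubgcp2, and without control 1 it was 0.219 for Tubgcp2. From the single best covered intron it was 0.232 for Tubgcp6 and 0.279 for Tubgcp2.

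**Figure D3:**
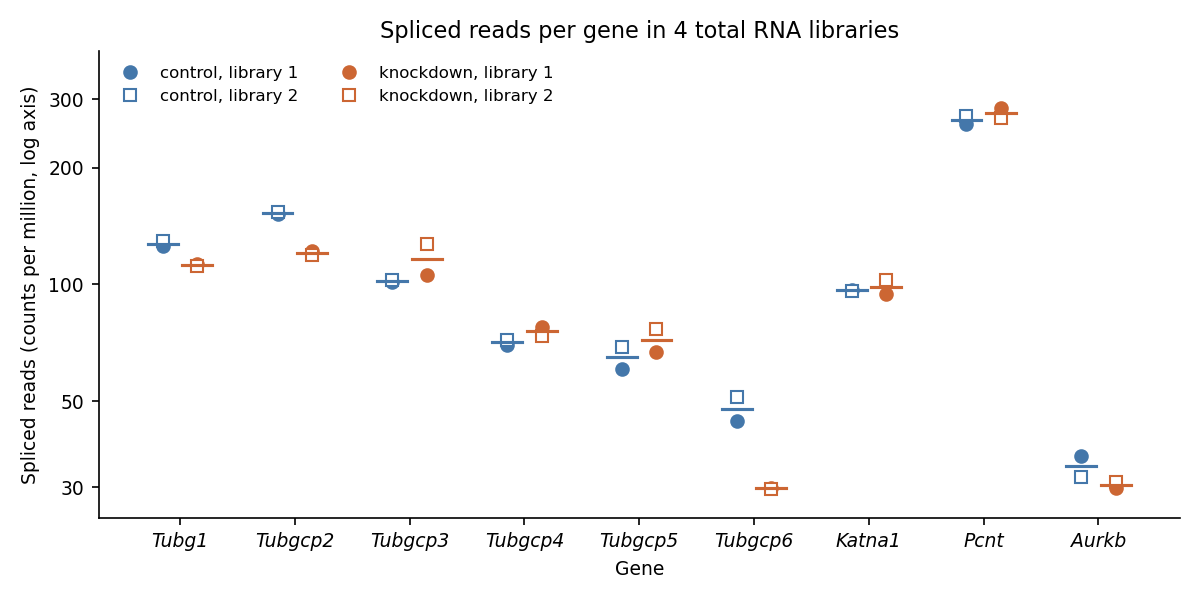
Spliced reads per gene (y axis, CPM on a log scale) for the 9 genes in the 2 control and 2 knockdown total RNA libraries, with each library as a point and group means as lines. Tubgcp6 and Tubgcp2 show knockdown points well below the controls, and those of Tubg1, at 113 and 112 CPM, also lie below its controls at 126 and 129 CPM.

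Tubgcp2 (chromosome 7) was the only gene of the set with an unadjusted p under 0.05 in gene splicing efficiency besides Tubgcp6. Its efficiency was 0.923 and 0.911 in the controls against 0.895 and 0.874 in the knockdown, without overlap. The log2 odds ratio of 0.53 (95% confidence interval 0.05 to 1.00) gave an unadjusted p of 0.0288 and an adjusted p of 0.252 (edgeR). Efficiency was lower in the mean in 12 of its 15 tested introns, and both knockdown libraries lay below both controls in 7 of them. Over all tested introns these shares were 58.3% and 24.3%. In 1 of the 15 introns, 533 reads were split at the 5′ junction and 1 at the 3′ junction in the pooled controls. Its unsplit reads, 32 in the controls and 52 in the knockdown, lay mostly at the 3′ junction (31 and 48). They are part of the gene's sum. The lowest p belonged to intron 11 (3200 nt), with 0.963 and 0.916 in the controls against 0.911 and 0.871 in the knockdown (adjusted p = 0.559).

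Tubg1 codes for γ-tubulin itself, the subunit that the other proteins arrange. Its splicing efficiency was the highest of the set in the controls, at 0.975 and 0.972, and was 0.963 and 0.967 in the knockdown. The groups did not overlap, but the log2 odds ratio of 0.42 had a 95% confidence interval of -0.12 to 0.96 (adjusted p = 0.625, edgeR). Spliced reads were 126 and 129 CPM in the controls against 113 and 112 CPM in the knockdown, a log2 fold change of -0.18 (unadjusted p = 0.0495, adjusted p = 0.253). Intron 7 (103 nt) had its lowest intron p, with 0.982 and 0.974 in the controls against 0.932 and 0.979 in the knockdown. Knockdown 1 alone was low there, and without it the log2 odds ratio was -0.05 in place of 1.02. Tubg1 has a close copy, Tubg2, which was not listed; how reads that fit both were assigned is not given in the sources used here.

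Tubgcp3, Tubgcp4 and Tubgcp5 code for GCP3, GCP4 and GCP5, of which GCP4 and GCP5 join GCP6 in the full ring. Tubgcp3 had an efficiency of 0.969 and 0.970 in the controls against 0.970 and 0.973 in the knockdown (log2 odds ratio -0.11, interval -0.67 to 0.45). Tubgcp4 had 0.934 and 0.932 in the controls against 0.932 and 0.919 in the knockdown (0.16, interval -0.37 to 0.69). Tubgcp5 had 0.895 and 0.895 in the controls against 0.902 and 0.920 in the knockdown (-0.26, interval -0.78 to 0.26). Tubgcp5 was thus higher in both knockdown libraries, Tubgcp4 lower in mean and Tubgcp3 nearly level, and none passed the test. Of the listed introns, 1 of Tubgcp3 and 2 of Tubgcp4 overlap genes on the opposite strand. Introns 16 and 17 of Tubgcp4 overlap annotated exons. They held 103 and 44 unsplit reads in the pooled controls, and 110 and 44 in the knockdown. Over all its introns Tubgcp4 had 152 and 109 unsplit reads in the controls against 166 and 135 in the knockdown.

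In spliced reads these 3 genes had higher means in the knockdown, without passing the test. Tubgcp3 had 101 and 103 CPM in the controls against 106 and 127 CPM in the knockdown (log2 fold change 0.19, adjusted p = 0.301, edgeR); without knockdown 1 it was called, at 0.32 (adjusted p = 0.00183). Tubgcp4 had 69.9 and 72.0 CPM in the controls against 77.4 and 73.7 CPM in the knockdown. Tubgcp5 had 60.7 and 69.0 CPM in the controls against 66.9 and 76.8 CPM in the knockdown, with overlapping groups. Among their introns, those with the lowest p were intron 12 of Tubgcp3 (287 nt), intron 5 of Tubgcp4 (2085 nt) and intron 17 of Tubgcp5 (114 nt), all higher in the knockdown in mean. Intron 12 of Tubgcp3 had 0.961 and 0.975 in the controls against 0.994 and 0.986 in the knockdown (unadjusted p = 0.0242, adjusted p = 0.369). Intron 5 of Tubgcp4 had 0.958 and 0.972 in the controls against 0.984 and 0.992 in the knockdown. Intron 17 of Tubgcp5 had 0.897 and 0.919 in the controls against 1.00 and 0.920 in the knockdown.

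Pcnt codes for pericentrin, the scaffold that holds γ-tubulin complexes at the centrosome, and had the most listed introns (33, of which 30 were tested). Its efficiency was 0.933 and 0.921 in the controls against 0.930 and 0.906 in the knockdown, with overlapping groups (log2 odds ratio 0.17, interval -0.27 to 0.61, adjusted p = 0.915, edgeR). Its spliced reads were 258 and 271 CPM in the controls against 284 and 269 CPM in the knockdown, also overlapping (log2 fold change 0.06, interval -0.09 to 0.22). Intron 4 (2385 nt) had its lowest intron p, with 0.972 and 0.965 in the controls against 0.947 and 0.928 in the knockdown (unadjusted p = 0.0391, adjusted p = 0.461, edgeR). Of the listed Pcnt introns, 3 overlap another gene. Split reads differed between junctions in introns 20 (210 at the 5′ and 73 at the 3′ junction in the pooled controls) and 21 (86 and 221).

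Katna1 codes for the catalytic p60 subunit of katanin. Its efficiency was 0.912 and 0.907 in the controls against 0.937 and 0.904 in the knockdown, so the knockdown libraries lay on either side of the controls (log2 odds ratio -0.22, interval -0.72 to 0.28, edgeR). Its spliced reads were level, at 96.9 and 96.3 CPM in the controls against 94.3 and 103 CPM in the knockdown (log2 fold change 0.03, interval -0.17 to 0.22). Intron 7 (6794 nt) had its lowest intron p, with 0.858 and 0.953 in the controls against 0.825 and 0.845 in the knockdown (adjusted p = 0.715). Of its 8 listed introns, 5 overlap Gm20470, a gene on the opposite strand. Whether strand was used in counting is not given in the sources used here.

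Aurkb codes for the kinase Aurora B. Only 2 introns of the gene were listed: 6 of the 7 introns of its reference transcript overlap an annotated exon, and the tables held few such introns. Its efficiency was 0.942 and 0.912 in the controls against 0.904 and 0.892 in the knockdown, without overlap, and the interval of the log2 odds ratio (0.58, -0.15 to 1.30) was the widest of the 9. Spliced reads were 36.1 and 31.8 CPM in the controls against 29.9 and 30.9 CPM in the knockdown (log2 fold change -0.17, adjusted p = 0.547, edgeR). Its intron with the lowest p, intron 1 of ENSMUST00000139457 (1717 nt), had 0.944 and 0.931 in the controls against 0.898 and 0.919 in the knockdown. In the pooled controls 627 reads were split at its 5′ junction and 3 at its 3′ junction. Unsplit reads at that 3′ junction were 27 in the pooled controls, and the pooled knockdown had 14 split and 33 unsplit there. The efficiency of this intron thus rests on its 5′ junction, and its reads are part of the gene's sum.

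Levels across genes were compared as spliced reads per intron listed in all 4 libraries, the introns that enter a gene's sum. In the controls the order was Aurkb (17.0 ± 1.54 CPM per intron, SD, n = 2), Tubg1 (14.1 ± 0.264), Katna1 (12.1 ± 0.0468), Tubgcp2 (10.2 ± 0.0837), Pcnt (8.82 ± 0.294), Tubgcp4 (7.88 ± 0.164), Tubgcp3 (6.37 ± 0.0656), Tubgcp5 (5.89 ± 0.536) and Tubgcp6 (3.98 ± 0.398). Tubgcp3 and Tubgcp5 differed by less than the SD of Tubgcp5, and the other neighbours differed by more than the larger of their SDs. The value of Aurkb rests on 2 introns that differed in depth. In the pooled controls intron 1 of ENSMUST00000139457 had 627 split reads at its 5′ junction, and intron 5 had 261. At the 3′ junctions they had 3 and 244, and 3′ reads do not enter these levels. In the knockdown Tubgcp6 was again lowest, at 2.48 ± 0.00846 CPM per intron. Aurkb was again highest, at 15.2 ± 0.358.

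The rest of the spindle machinery was read from 7 lists with 70 genes: partners of the γ-tubulin complex, augmin, other severing enzymes, partners of the Aurora kinases, spindle motors, kinetochore and checkpoint genes, and α- and β-tubulins. Of these, 66 were listed and 63 could be tested in each gene test. In splicing efficiency 0 were called (1 at an unadjusted p under 0.05, edgeR), where 6.98% of all tested genes were called lower and 0.128% higher. The alternatives called 0 to 2: 2 with the replicate number as a block, 1 with split and unsplit reads scaled separately, 1 with introns under several genes kept, and 0 with the rest. In spliced reads 1 fell and 0 rose (9 at an unadjusted p under 0.05), where 6.76% of all tested genes were called fewer and 1.96% more. The median log2 odds ratio was 0.08 and the median log2 fold change in spliced reads 0.03, near those of all tested genes. The lists of γ-tubulin partners (10 tested in efficiency), Aurora partners (8), spindle motors (12), kinetochore genes (12) and tubulins (10) had 0 genes called in either test. At an unadjusted p under 0.05 these 5 lists held 0 genes in efficiency and, in spliced reads, 4 kinetochore genes, 1 motor gene and 1 tubulin. Without knockdown 1, spliced reads of 18 of the 63 genes were called, 10 more and 8 fewer, where 2193 of all 9484 genes were called, 906 more and 1287 fewer.

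The gene called in spliced reads was Haus7, a subunit of augmin, the complex that branches new microtubules from the sides of spindle microtubules. Its spliced reads were 62.2 and 60.4 CPM in the controls against 43.0 and 44.8 CPM in the knockdown (log2 fold change -0.48, SE 0.110, adjusted p = 0.00580, edgeR). The groups did not overlap, beside 24.6% of all tested genes with both knockdown libraries below both controls. The efficiency of Haus7 was 0.989 and 0.981 in the controls against 0.983 and 0.970 in the knockdown, with overlapping groups. The adjusted p of its spliced reads was 0.145 without control 1 and 0.0768 without control 2.

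**Figure D4:**
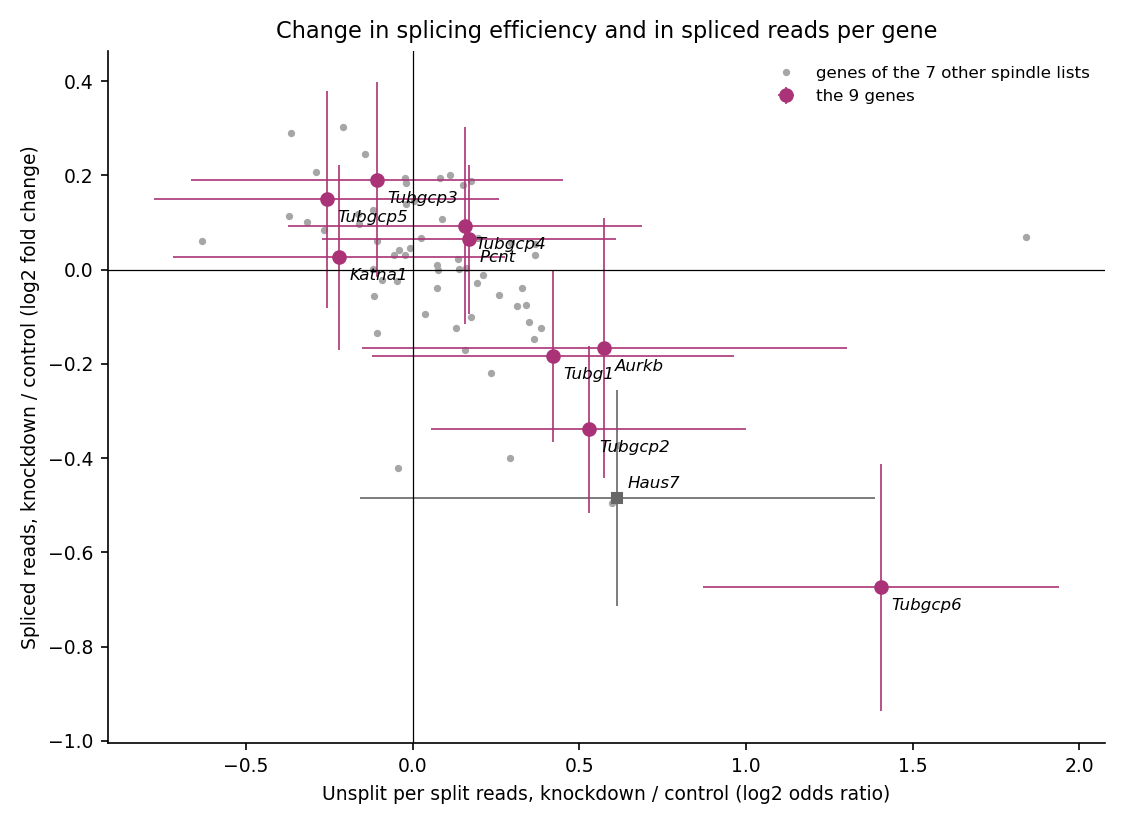
Change in splicing efficiency (x axis, log2 odds ratio, positive meaning more unsplit per split reads in the knockdown) against change in spliced reads (y axis, log2 fold change) for the 9 genes (large points), Haus7 (square) and the other list genes (small points), with 95% confidence intervals for the labelled genes. Tubgcp6 (1.41 and -0.67) lies at the lower right, and the small point farthest right is Tubb2a, whose single tested intron did not pass. Split reads at 5′ junctions enter both axes.

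The genes whose efficiency over the 4 libraries was nearest to that of Tubgcp6, by Euclidean distance among 9361 other genes, were Gripap1 (distance 0.0203), Mutyh (0.0252) and Clcn2 (0.0260). Their gene log2 odds ratios were 1.34, 1.49 and 1.57, which the choice by efficiency had placed near that of Tubgcp6. Their log2 fold changes in spliced reads were -0.52, -0.67 and 0.12. The adjusted p of those fold changes was 0.0680, 0.00744 and 0.571 (edgeR).

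Long reads, from 1 library per group and so without a test, counted whole transcripts. Intervals cover counting error only. The label of the control library names the knockdown's total RNA as its source; Son itself had 217 reads in the library labelled control and 37 in that labelled knockdown. All 9 genes had at least 20 reads over both libraries. Tubgcp2 was at least 2-fold lower, with 66 reads in the control and 17 in the knockdown, 21.4 and 9.07 CPM (log2 ratio -1.21, interval -2.10 to -0.45). No other gene of the set moved 2-fold, where 4.16% of 9616 genes were at least 2-fold lower and 2.2% higher. Tubgcp6 had 20 and 16 reads, 6.49 and 8.53 CPM (log2 ratio 0.40, interval -0.65 to 1.42).

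Among the Tubgcp6 reads, coding transcripts had 17 in the control and 8 in the knockdown, and transcripts annotated with a retained intron had 3 and 8. The coding share was 85.0% (95% Wilson interval 64.0 to 94.8%) in the control and 50.0% (28.0 to 72.0%) in the knockdown, so the intervals overlap. The main coding transcript, Tubgcp6-202, had 16 and 6 reads, and the retained-intron transcript Tubgcp6-211 had 3 and 7. Over all 9 genes, retained-intron transcripts took 11.0% of 699 control reads and 14.0% of 435 knockdown reads, and coding transcripts 82.8% and 79.3%. Of the 77 control and 61 knockdown reads on retained-intron transcripts, 3 and 8 were those of Tubgcp6. Shares over all other genes are not given here, and the difference was not tested.

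**Figure D5:**
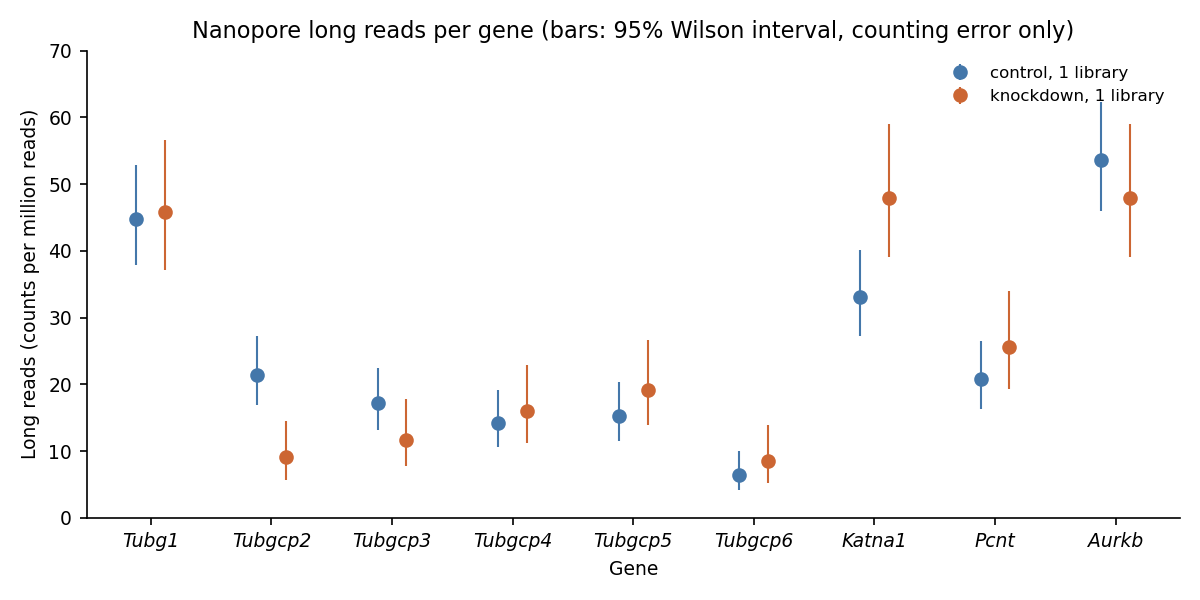
Nanopore long reads per gene (y axis, CPM of the library total) for the 9 genes in 1 control and 1 knockdown library, with 95% Wilson intervals for counting error. Only in Tubgcp2, at 21.4 and 9.07 CPM, and not in Tubgcp6, at 6.49 and 8.53 CPM, do the intervals of the libraries lie apart.

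The remaining genes had long-read log2 ratios between -0.53 and 0.54. Tubgcp3 had 53 control and 22 knockdown reads (-0.53, interval -1.34 to 0.19). Aurkb had 165 and 90 reads (-0.15). Tubg1 had 138 and 86 reads (0.04), level with the difference in library size. Tubgcp4 had 44 and 30 reads (0.17), Pcnt 64 and 48 (0.31), and Tubgcp5 47 and 36 (0.34). Katna1 had 102 and 90 reads (0.54, interval 0.11 to 0.96), the highest ratio of the set, while its spliced reads in total RNA were level. Haus7, of the augmin list, had 111 and 57 reads (-0.24).

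By transcript, 51 of 76 annotated transcripts of the 9 genes had reads, and 14 had at least 20 over both libraries. Of those 14, 1 was at least 2-fold lower and 0 higher, beside 5.8% and 3.32% of 13807 transcripts. It was Tubgcp2-201, the main coding transcript of Tubgcp2, with 32 control and 5 knockdown reads (log2 ratio -1.85, interval -3.68 to -0.59). Of the others, the Aurkb transcripts had 152 and 73 reads (Aurkb-201) and 12 and 12 (Aurkb-202), and the Katna1 transcripts 56 and 41 (Katna1-202) and 44 and 45 (Katna1-201). Pcnt had 24 and 19 reads on Pcnt-202, 15 and 15 on Pcnt-208 and 17 and 7 on Pcnt-201. Tubg1-201 had 132 and 79 reads, the retained-intron transcript Tubgcp3-207 24 and 11, Tubgcp3-201 21 and 8, Tubgcp4-203 16 and 14, and Tubgcp5-201 23 and 15.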

How the data were processed

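The total RNA tables hold, per the labels, SPLICE-q output: for every intron, counts of reads split or unsplit at each junction. The deposited score is a fraction that equals split reads divided by all junction reads, as checked on the tables. The deposited long-read tables hold read counts per transcript. The submitters' processing notes name GRCm39, SAMtools and minimap2; annotation, settings and strandedness are not given in the sources used here. The labels name the same total RNA sample as the source of both long-read libraries, so assays were not paired. Introns were reduced to 1 entry per position; the 681 listed under several genes stayed out of gene sums. edgeR 4.0.16 (quasi-likelihood, R 4.3.3) tested introns listed in all 4 libraries with at least 10 split and 10 unsplit reads, gene sums of these reads, and split reads at 5′ junctions (TMM, filterByExpr), with Benjamini-Hochberg adjustment over all features. The scripts were tested on simulated data. Alternatives used DESeq2 1.42.0 and limma 3.58.1. Long-read CPM used library totals, with 0.5 reads added for ratios, a minimum of 20 reads and intervals from scipy 1.17.1; a median tested intron of the 9 genes had 193 junction reads per library. Gene names and transcript sequences came from GENCODE M21 by identifier. Introns named by rule are those called and, in a gene with none, that with the lowest p; other Tubgcp6 introns and the introns under 100 nt of other genes were named after their values were seen. List genes named are those called and, in a figure, Tubb2a. The genes, lists and tests were chosen with earlier results of these data known. One gene of the lists is not reported here and is outside their counts.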

Additional observations from a re-analysis of the deposited data

How the results depend on the processing

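The 2 introns called among the 9 genes became 0 at the 5′ junction alone (9 at an unadjusted p under 0.05, edgeR), at the 3′ junction alone (13), with DESeq2 (9) and with limma (11), and 0 to 3 when a library was left out. The 1 gene called in splicing efficiency became 0 with limma, which called 0 introns and 0 genes in all (5696 and 1231 at an unadjusted p under 0.05; 1 of the 9 genes), and stayed 1 when any library was left out. The 2 genes called in spliced reads became 0 with the best covered intron only (2 at an unadjusted p under 0.05, edgeR) and 0 to 3 when a library was left out. The 1 long-read transcript past 2-fold became 8 of 32 with at least 5 reads, 4 in each direction. The share over all transcripts at that minimum is not given here, so this count has no background. Replicate numbers are shared by the groups. Across features, the differences between the 2 libraries of a group were nearly uncorrelated between the groups (0.00166 in spliced reads and 0.00846 in intron log odds). An offset common to all features drops out of this correlation, so it cannot show whether the libraries are paired. With the replicate number as a block, 6 introns (5 lower, 1 higher) and 2 genes in splicing efficiency were called, Tubgcp2 being added at an adjusted p of 0.00638 (edgeR), and spliced reads kept 2 calls. The block called more over all features too: 1626 of 63309 introns (1580 lower, 46 higher) in place of 1112. Of 9370 genes it called 1018 in splicing efficiency (965 lower, 53 higher) in place of 666.

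Directions turned in 9 values, none of them called: Tubg1 intron 7 without knockdown 1 (-0.0505, up to 1.69 without another library), Katna1 intron 7 at the 5′ junction (-0.17), Aurkb intron 1 at the 3′ junction (-1.83), the gene odds ratios of Tubgcp3 at the 5′ junction (0.11), Tubgcp4 with split and unsplit reads scaled separately (-0.0087), Katna1 without knockdown 1 (0.10, down to -0.55) and Pcnt without knockdown 2 (-0.0665, up to 0.41), and the spliced reads of Katna1 without knockdown 2 (-0.0353, up to 0.0881) and Aurkb at the 3′ junction (0.0069). The causes were not tested. Over all features, 1112 introns called became 232 (5′), 322 (3′), 316 (DESeq2) and 171 to 678 without control 1, control 2 or knockdown 2. The 666 genes called in efficiency became 1018 with the block and 180, 398 and 413 without those libraries, and the 826 in spliced reads became 290 with the best intron, 381 and 394 without control 1 or 2 and 2193 without knockdown 1. DESeq2 on splicing efficiency and the alternatives for the gene lists were added after the data were seen. Depth limits single introns: Tubgcp6 intron 10 had 27 junction reads in control 2 and 28 in knockdown 2.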
